A study of Mus musculus with 27 samples.

Results

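RNA levels were followed for 10 genes tied to glucocorticoid signalling, of the 36333 in the table. They are the glucocorticoid receptor gene *Nr3c1*, *Hsd11b1* for the enzyme that regenerates its ligand, and 8 genes known to be induced by the receptor. These 8 are *Fkbp5*, *Klf9*, *Zbtb16*, *Tsc22d3*, *Sgk1*, *Ddit4*, *Errfi1* and *Dusp1*. The data hold no measure of hormone level or receptor activity. The genes were picked by symbol and were chosen from the age comparison, with the earlier result in view that several of them were lower at 20 months in these same samples. The levels by age are therefore a description. The adjusted p-values beside them set each difference against the spread between samples and are not independent evidence.

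All mice were *Mlx*KO mice, male by the study's own account, from a cross of C57Bl6 Mlx Flox/Flox mice with a B6.129 strain that carries the allele Gt(ROSA)26Sortm1(cre/ERT2)Tyj. A tamoxifen-activated Cre recombinase, expressed body-wide from the ROSA26 promoter, removes part of *Mlx* in them. Every mouse of both ages had been given 5 injections of tamoxifen, 1 a day, at 75 mg/Kg, i.p. in corn oil at weaning, once it weighed 15 g or more. RNA was measured in liver, adipose tissue (labelled omental) and skeletal muscle at 5 months (4 samples per tissue) and 20 months (5 samples per tissue), 27 samples in all. The older samples are called 20 months here as labelled, but their names carry the number 18. The entries with matching final digits in the study's mouse list have an age of 18 months. That list numbers each of them separately, which does not settle whether different tissues came from the same older mouse. The 5-month samples end in the same 4 numbers in each tissue, which that list gives as mice, so the 3 tissues came from the same 4 mice. Their samples are called A (X5L4299 in liver, X5F4299 in adipose tissue, X5S4299 in muscle), B (X5L5001, X5F5001, X5S5001), C (X5L5238, X5F5238, X5S5238) and D (X5L5239, X5F5239, X5S5239). WT mice were not analysed here, so nothing below separates age from the loss of *Mlx*.

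Glucocorticoids enter cells freely and bind the glucocorticoid receptor, which is held in the cytoplasm by Hsp90 and its cochaperones. The loaded receptor moves to the nucleus and binds glucocorticoid response elements, where it induces genes that redirect fuel use, restrain inflammation and dampen growth factor signals. In liver this response drives gluconeogenesis, in adipose tissue lipolysis, and in muscle protein breakdown. Glucocorticoid secretion follows the time of day and rises with stress and fasting.

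Reads on genes numbered 14384695 to 25673919 per sample, and the values of the 10 genes rested on 58 reads (*Zbtb16* in a liver sample) to 30041 reads (*Errfi1* in a liver sample). Values are CPM that the authors also divided by a factor for each sample, so they compare 1 gene between samples and not 2 genes with each other. *Mlx* itself had mean values of 9.12 ± 1.26 (SD, n = 4) and 10.6 ± 2.09 (n = 5) in adipose tissue, 29 ± 3.47 and 23.9 ± 3.79 in liver and 9.41 ± 1.89 and 10.3 ± 0.80 in muscle at 5 and 20 months. Reads outside the deleted part count toward these values, so they do not check the deletion. In the study's mouse list, the *Mlx* transcript left relative to WT was higher in muscle than in liver or adipose tissue at both ages. Loss of *Mlx* was thus less complete in muscle. Each tissue expressed its own markers: the summed level of 5 hepatocyte genes was at least 43102 in liver samples and at most 318.4 elsewhere, that of 5 myofibre genes was at least 122077 in muscle samples and at most 850.2 elsewhere, and that of 5 adipocyte genes was at least 5886 in adipose samples and at most 439.3 elsewhere. The samples were bulk tissue, in which fewer cells of a type and less RNA per cell cannot be told apart.

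Upstream sequences were read from RefSeq promoters to show where receptor motifs lie in these genes. The window ran from 250 bases before to 50 after a start (build GRCm38.p6). 8 of the 10 genes matched, with 16 promoters between them, and *Nr3c1* and *Zbtb16* had no entry. The letters searched were the full response element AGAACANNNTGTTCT, its relaxed core GNACANNNTGTNC, the half-sites AGAACA and TGTTCT, and the E-box CACGTG that Myc and Mlx network proteins bind. Each set reads the same on both strands. The full element contains the core and both half-sites. It was found in 1 promoter of *Sgk1* and in 3 of all 32851 promoters (0.00913%), and the core in the same *Sgk1* promoter and in 0.475% of all. Half-sites lay in 4 of the 16 promoters, of *Sgk1* and *Tsc22d3*, against 19% of all promoters, and E-boxes in 3 of the 16, of *Sgk1*, *Dusp1* and *Fkbp5*, against 7.15%. These matches describe the letters only. The 4 stretches below are shown because they hold the full element or the only match found for their gene, with matches in capitals, and each stops before any exon that GENCODE vM21 places upstream of the RefSeq start.
Sgk1, chr10:21993640-21993889, plus strand, 250 bases: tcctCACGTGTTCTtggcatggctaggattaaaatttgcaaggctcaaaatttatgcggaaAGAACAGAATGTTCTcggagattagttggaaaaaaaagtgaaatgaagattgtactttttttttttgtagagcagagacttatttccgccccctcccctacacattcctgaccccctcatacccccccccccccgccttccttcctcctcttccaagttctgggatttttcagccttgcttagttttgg
Tsc22d3, chrX:140600660-140600772, minus strand, 113 bases: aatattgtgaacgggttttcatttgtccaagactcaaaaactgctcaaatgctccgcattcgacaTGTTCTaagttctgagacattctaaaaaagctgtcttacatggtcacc
Fkbp5, chr17:28486150-28486399, minus strand, 250 bases: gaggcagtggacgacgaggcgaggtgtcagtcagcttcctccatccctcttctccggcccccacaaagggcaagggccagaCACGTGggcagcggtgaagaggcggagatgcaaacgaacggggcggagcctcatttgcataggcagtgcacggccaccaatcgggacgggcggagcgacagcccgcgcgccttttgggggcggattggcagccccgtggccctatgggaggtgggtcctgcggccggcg
Dusp1, chr17:26508520-26508722, minus strand, 203 bases: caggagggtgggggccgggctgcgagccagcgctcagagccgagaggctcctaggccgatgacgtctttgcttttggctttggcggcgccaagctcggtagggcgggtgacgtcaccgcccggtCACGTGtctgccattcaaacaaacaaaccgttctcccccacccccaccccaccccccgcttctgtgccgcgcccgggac
Counted back from the start, the full element of *Sgk1* begins at -189, and an E-box at -246 overlaps a half-site at -242. The half-site of *Tsc22d3* begins at -185, the E-box of *Fkbp5* at -169 and that of *Dusp1* at -126. The other promoters of these genes, and those of *Klf9*, *Ddit4*, *Errfi1* and *Hsd11b1*, hold no full element in this window, which says nothing of elements farther away.

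*Nr3c1* (gene ID 14815, chromosome 18, 39410545 to 39519421) encodes the receptor. In liver its values were 78.7, 81.8, 82.4 and 84.0 at 5 months and 68.0, 70.1, 70.5, 81.8 and 102.2 at 20 months, and in muscle 114.1, 122.0, 125.6 and 139.0 against 108.5, 109.7, 118.7, 127.7 and 138.4. The ages overlapped in both tissues. The log2 differences were -0.07 ± 0.12 (SE, adjusted p = 0.695) and -0.06 ± 0.10 (adjusted p = 0.71). In adipose tissue the values were 63.6, 85.0, 87.9 and 90.3 at 5 months and 81.8, 94.1, 110.2, 110.4 and 121.4 at 20 months, a difference of 0.34 ± 0.15 in the opposite direction to the induced genes (adjusted p = 0.121), which passed when all 27 samples shared 1 limma fit (adjusted p = 0.0398). Its lowest adipose value was that of sample B.

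*Hsd11b1* (gene ID 15483, chromosome 1, 193221640 to 193264045) encodes the enzyme that turns inactive 11-keto steroid into active glucocorticoid within the cell. Its liver values were 439.4, 500.2, 504.3 and 548.2 at 5 months and 429.0, 516.2, 542.8, 593.7 and 645.1 at 20 months (log2 difference 0.12 ± 0.14, adjusted p = 0.544). In adipose tissue it was at 42.1, 71.3, 87.3 and 118.9 against 41.8, 49.7, 59.6, 70.3 and 72.5 (-0.37 ± 0.28, adjusted p = 0.33), and in muscle it stayed between 6.77 and 14.1 in all 9 samples (0.17 ± 0.19, adjusted p = 0.538). The ages overlapped in each tissue. With each tissue fitted alone, neither the receptor gene nor this enzyme gene passed the threshold.

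*Fkbp5* (gene ID 14229, chromosome 17, 28398753 to 28486149) encodes the Hsp90 cochaperone that lowers the receptor's affinity for its ligand, the feedback arm of the pathway. In liver it was at 59.98, 96.3, 129.7 and 345.7 at 5 months and at 30.1, 39.2, 39.9, 40.8 and 59.2 at 20 months. In adipose tissue it was at 107.9, 107.9, 150.6 and 183.7 against 22.5, 26.2, 28.7, 36.6 and 65.2, and in muscle at 215.5, 309.8, 411.4 and 446.4 against 51.7, 87.0, 133.7, 174.5 and 195.6. All 20-month samples lay below all 5-month samples in each tissue, in liver by a narrow margin. The 20-month mean was 0.265, 0.261 and 0.372 of the 5-month mean. *Fkbp5* fell by 1.61 ± 0.40 on the log2 scale in liver (adjusted p = 0.0218), by 1.98 ± 0.30 in adipose tissue (adjusted p = 0.00948) and by 1.52 ± 0.35 in muscle (adjusted p = 0.0148). The liver call was lost without sample A or without older sample 18 (adjusted p up to 0.0541), and the calls in adipose tissue and muscle held in 9 of 9 fits that left out 1 sample.

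*Klf9* (gene ID 16601, chromosome 19, 23141226 to 23168129) encodes a Krüppel-like transcription factor that the receptor induces in many tissues. Its values were 126.2, 130.8, 141.3 and 249.8 against 67.1, 79.7, 110.6, 111.0 and 113.5 in liver, 74.7, 93.3, 115.6 and 188.3 against 31.5, 42.2, 54.8, 61.7 and 74.5 in adipose tissue, and 251.3, 281.2, 348.2 and 358.8 against 215.0, 228.6, 245.1, 247.4 and 248.7 in muscle. The ages did not overlap in any of the 3 tissues, although the highest 20-month value came close to the lowest 5-month value in adipose tissue and muscle. It fell by 0.71 ± 0.22 in liver (adjusted p = 0.0460), 1.12 ± 0.30 in adipose tissue (adjusted p = 0.0358) and 0.37 ± 0.11 in muscle (adjusted p = 0.0408), the smallest called change of the 10 genes there. These calls held in 1, 3 and 2 of the 9 fits that left out 1 sample (adjusted p up to 0.108, 0.0896 and 0.104), and were lost in each tissue with no filter on low values.

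*Zbtb16* (gene ID 235320, chromosome 9, 48651797 to 48836225) encodes PLZF, a zinc finger transcription factor strongly induced by glucocorticoids. In muscle it was at 388.3, 434.5, 485.7 and 541.8 at 5 months and at 191.2, 217.7, 238.9, 241.7 and 312.6 at 20 months, without overlap, and fell by 0.95 ± 0.14 (adjusted p = 0.00273), a call that was lost when all 27 samples shared 1 estimate of the spread (adjusted p = 0.300). In liver 1 sample of the 9 stood apart: sample B was at 117.0, the other 5-month samples at 7.2, 7.2 and 8.97, and the 20-month samples at 3.29, 3.50, 4.63, 7.07 and 13.5. The log2 difference of -1.34 ± 0.72 did not pass (adjusted p = 0.199). In adipose tissue sample B was at 319.4, the other 5-month samples were at 59.1, 59.6 and 79.6 and the 20-month samples at 19.5, 26.5, 47.1, 50.6 and 53.0. All 20-month adipose values were the lower ones, but the difference of -1.39 ± 0.51 did not pass (adjusted p = 0.0771).

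*Tsc22d3* (gene ID 14605, chromosome X, 140539528 to 140600522) encodes GILZ, a mediator of the anti-inflammatory response. In muscle it was at 287.0, 347.2, 419.0 and 633.1 against 149.5, 169.7, 181.7, 196.3 and 240.7, without overlap, and fell by 1.12 ± 0.20 (adjusted p = 0.00551). In liver the values were 39.1, 43.3, 78.6 and 162.3 against 24.4, 40.2, 40.2, 40.4 and 55.3, and in adipose tissue 56.9, 71.4, 77.7 and 216.1 against 49.0, 63.7, 67.6, 70.9 and 75.9. The ages overlapped in both, and the differences of -0.80 ± 0.37 and -0.49 ± 0.34 did not pass (adjusted p = 0.142 and 0.295).

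*Sgk1* (gene ID 20393, chromosome 10, 21882184 to 21999903) encodes a kinase that regulates ion transport and acts beside Akt. In liver it was at 36.1, 45.1, 79.2 and 91.8 at 5 months and at 20.0, 24.3, 25.4, 38.3 and 39.8 at 20 months, and fell by 1.02 ± 0.29 (adjusted p = 0.0333). In adipose tissue it was at 110.8, 200.7, 205.1 and 212.3 against 47.1, 59.7, 73.7, 82.7 and 122.5, and fell by 1.26 ± 0.28 (adjusted p = 0.0243). The calls held in 4 and 5 of the 9 fits that left out 1 sample (adjusted p up to 0.0956 and 0.0714). In each of these tissues the lowest 5-month sample lay within the 20-month range. In muscle only samples A and B, at 215.6 and 386.5, lay above the 20-month values of 63.0, 71.6, 72.0, 79.9 and 88.5, while the other 5-month samples were at 67.4 and 79.0 (-0.95 ± 0.41, adjusted p = 0.118).

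*Ddit4* (gene ID 74747, chromosome 10, 59949675 to 59951770) encodes REDD1, an inhibitor of mTORC1. It had the largest change of the 10 genes: in muscle it was at 35.7, 52.1, 139.4 and 288.3 at 5 months and at 4.56, 4.70, 15.8, 16.6 and 19.7 at 20 months, a 20-month mean of 0.0953 of the 5-month mean. It fell there by 3.05 ± 0.59 (adjusted p = 0.00746), without overlap. In adipose tissue it was at 72.0, 76.4, 83.6 and 145.2 against 20.2, 25.2, 31.7, 44.5 and 73.5, where 1 older sample reached the younger range, and fell by 1.34 ± 0.36 (adjusted p = 0.0347). With 1 sample left out the muscle call held in 9 of 9 fits and the adipose call in 3 of 9 (adjusted p up to 0.0909). In liver it was at 8.56, 9.62, 21.9 and 88.7 against 4.12, 6.02, 6.73, 10.3 and 11, and the difference of -1.38 ± 0.57 did not pass (adjusted p = 0.103).

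*Errfi1* (gene ID 74155, chromosome 4, 150853796 to 150868889) encodes MIG6, an inhibitor of the EGF receptor. In liver it was at 1314, 1387, 1490 and 2185 against 310.4, 568.0, 711.3, 821.0 and 1327, in adipose tissue at 42.6, 47.9, 64.4 and 184.8 against 13.4, 14.2, 21, 25.4 and 37.2, and in muscle at 58.1, 65.7, 128.8 and 223.3 against 38.8, 42.4, 43.3, 45.3 and 46.9. The ages overlapped only in liver, through 1 older sample. It fell by 1.22 ± 0.35 (adjusted p = 0.0337), 1.71 ± 0.44 (adjusted p = 0.0314) and 1.23 ± 0.31 (adjusted p = 0.0217) in liver, adipose tissue and muscle. These calls held in 2, 3 and 6 of the 9 fits that left out 1 sample (adjusted p up to 0.0963, 0.0766 and 0.0542).

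*Dusp1* (gene ID 19252, chromosome 17, 26505591 to 26508472) encodes the phosphatase that switches off p38 and JNK, and responds to growth factors and stress as well as to glucocorticoids. In liver it was at 26.5, 32.5, 37.5 and 48.8 against 24.1, 25.3, 29.8, 36.5 and 60.8, with full overlap (-0.09 ± 0.26, adjusted p = 0.826). In adipose tissue it was at 69.5, 96.1, 112.0 and 118.0 against 42.8, 59.8, 62.9, 64.0 and 79.1 and fell by 0.67 ± 0.20 (adjusted p = 0.0442), a call that held in 2 of 9 fits that left out 1 sample (adjusted p up to 0.121). In muscle it was at 70.0, 70.9, 101.0 and 126.2 against 34.6, 40.4, 70.5, 74.8 and 75.2 (-0.66 ± 0.26, adjusted p = 0.0903).

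**Figure D1:**
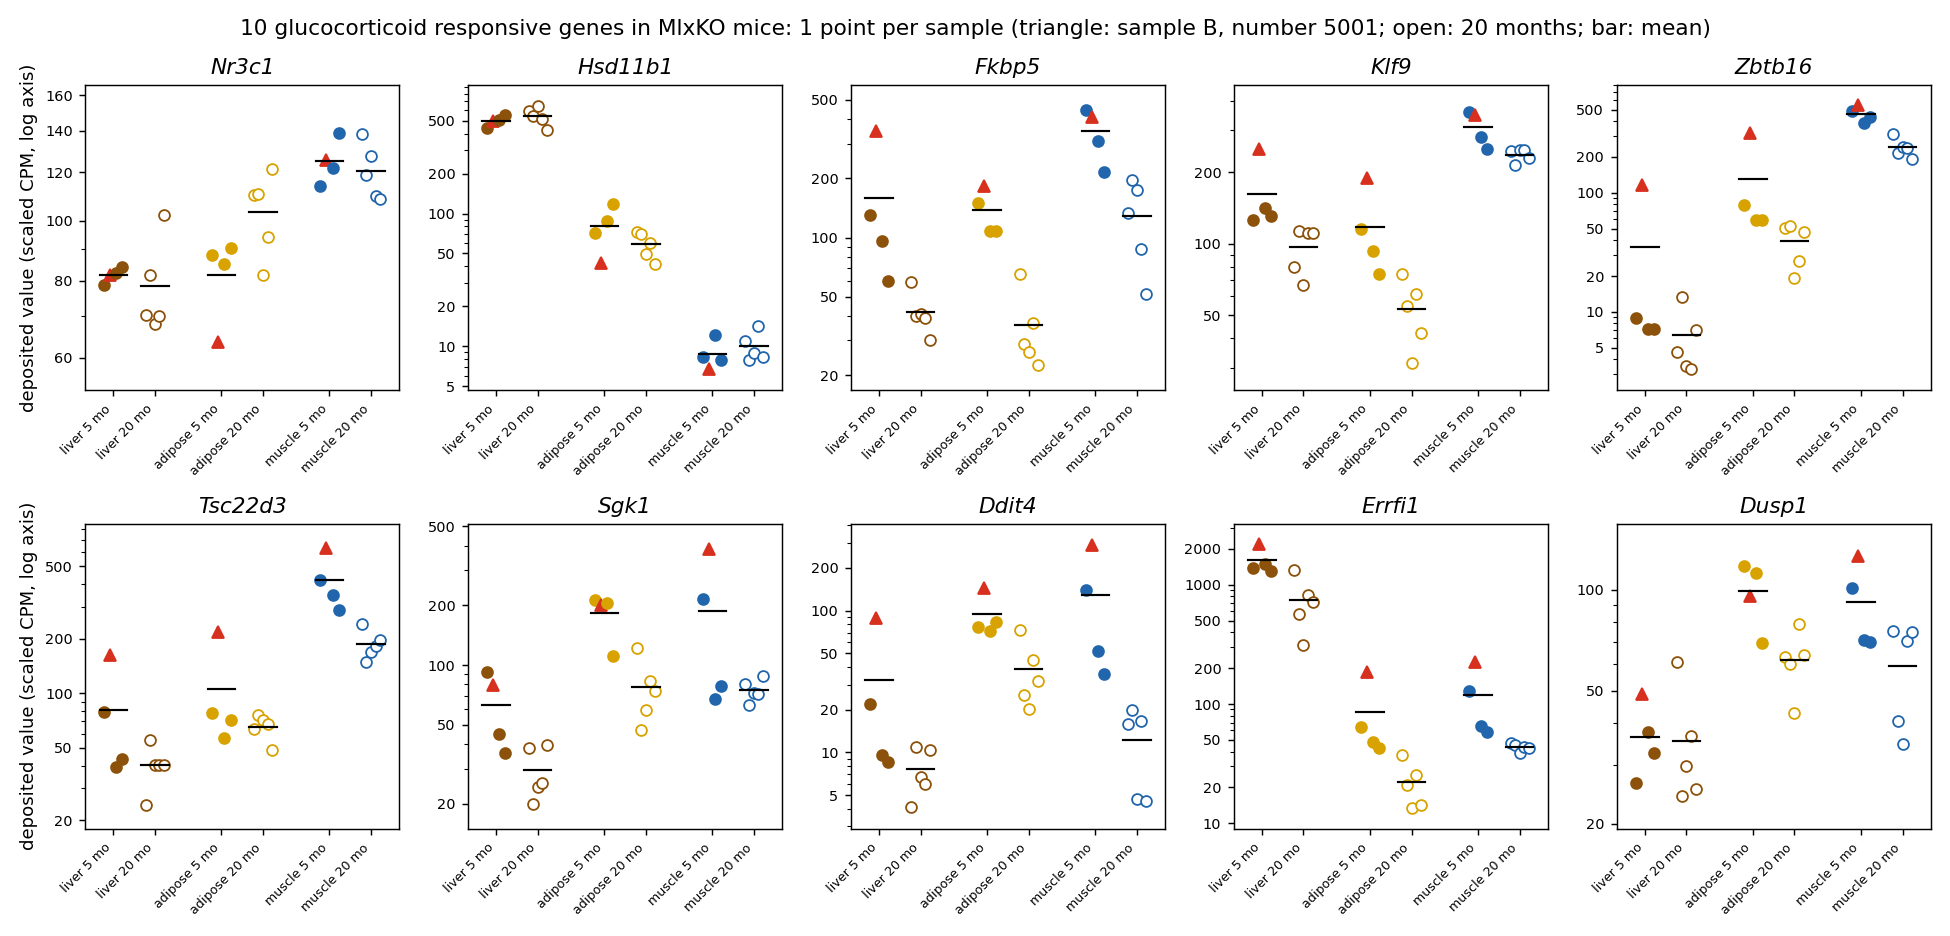
Deposited value of each of the 10 genes (log axis, CPM scaled per sample) in every sample by tissue and age, with 1 point per sample, filled at 5 months and open at 20 months, a red triangle for the B samples and a bar at the group mean. *Fkbp5* and *Klf9* at 20 months sit below all 5-month samples in each tissue, *Nr3c1* and *Hsd11b1* overlap, and the triangle is the highest 5-month point in 19 of 30 combinations of gene and tissue.

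Across the 10 genes, 4 fell in liver (*Fkbp5*, *Klf9*, *Sgk1*, *Errfi1*), where 9.79% of the 12654 genes tested were called lower. In adipose tissue 6 fell (the same 4 with *Ddit4* and *Dusp1*), with 9.35% of 14005 genes called lower. In muscle 6 fell (*Fkbp5*, *Klf9*, *Errfi1*, *Zbtb16*, *Tsc22d3*, *Ddit4*), with 10.1% of 12720 genes called lower. All 10 genes passed the filter on low values in each tissue. With each tissue fitted alone, no member was called higher by limma, where 10%, 9.75% and 9.13% of genes were called higher in liver, adipose tissue and muscle, nor by edgeR or DESeq2 on the recovered reads. In 1 limma fit of all 27 samples *Nr3c1* was called higher in adipose tissue. At an unadjusted p under 0.05 the higher members numbered 0, 1 (*Nr3c1*) and 0. Every 20-month value lay below every 5-month value for 2 members in liver, 4 in adipose tissue and 6 in muscle, which held for 10.7%, 9.10% and 8.64% of all genes tested. The median log2 difference of the 10 genes was -0.91, -1.19 and -0.95, beside 0.00, 0.01 and 0.02 over all genes. Since the genes were chosen with this contrast known, nothing is read from these counts against those shares.

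**Figure D2:**
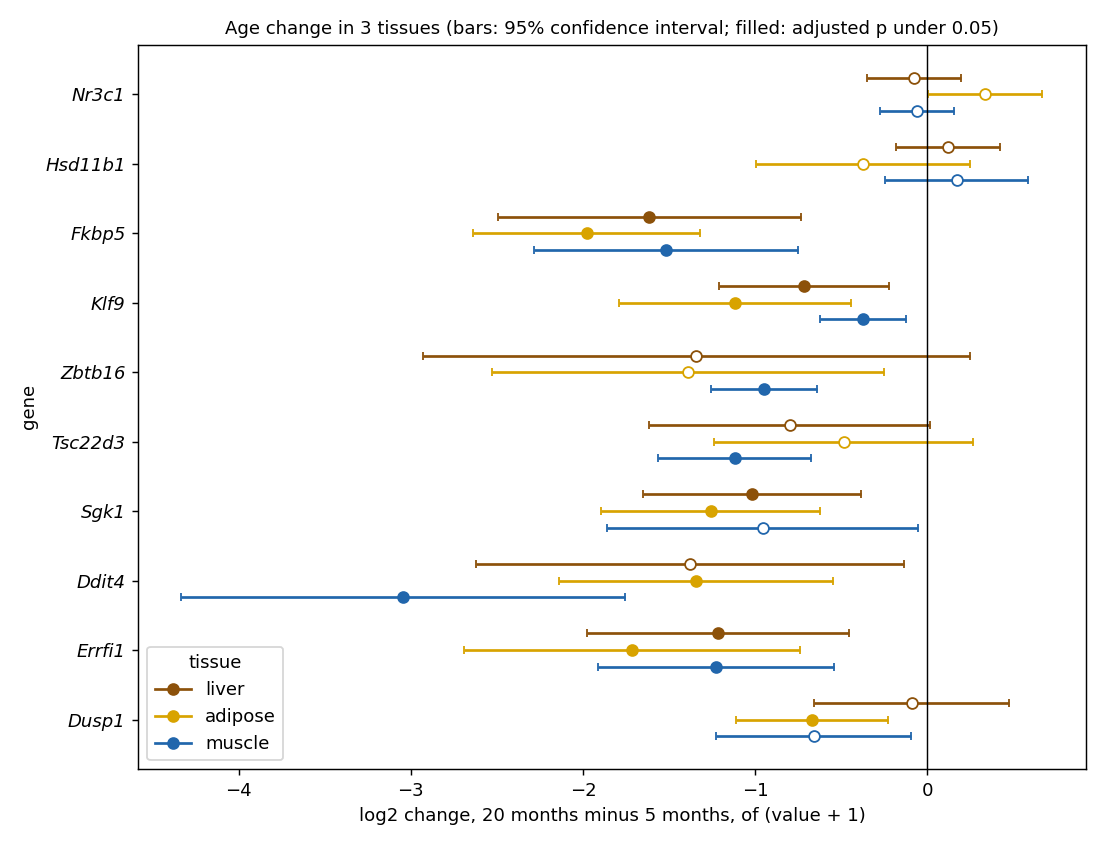
Log2 difference of (value + 1) between 20 and 5 months (x axis) for each gene (y axis) in 3 tissues, with bars for the 95% confidence interval and filled points for an adjusted p under 0.05. The 8 induced genes lie to the left of 0 in each tissue, with the intervals of *Dusp1*, *Tsc22d3* and *Zbtb16* in liver and of *Tsc22d3* in adipose tissue reaching past 0, while *Nr3c1* and *Hsd11b1* lie between -0.37 and 0.34.

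The 5-month samples differed among themselves in a way that ran across tissues. The B samples held the highest of the 4 values for 7 of the 10 genes in liver, 6 in adipose tissue and 6 in muscle, beside 34.3%, 25.4% and 27.4% of all genes tested. *Tsc22d3*, *Zbtb16*, *Ddit4* and *Errfi1*, 4 of the 10, were highest in sample B in all 3 tissues, which held for 5.61% of the 11014 genes tested in each tissue. In 15 of the 30 combinations of gene and tissue sample B came first and sample A next. Sample B exceeded the highest of the other 3 samples 13-fold for *Zbtb16* and 4.05-fold for *Ddit4* in liver, 4.01-fold for *Zbtb16* and 2.87-fold for *Errfi1* in adipose tissue, and 2.07-fold for *Ddit4* in muscle. *Nr3c1* and *Hsd11b1* were not highest in sample B in any tissue. This pattern was noticed in the data and is a description of 1 mouse of 4. The genes were chosen with the age contrast known, to which high 5-month values contribute, so nothing is read from these counts against those shares.

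Sample B was also highest or lowest of the 4 for other genes, whose part in the levels of the 10 genes was not tested. Of all genes tested, 34.3%, 25.4% and 27.4% were highest in sample B in liver, adipose tissue and muscle. The counts below are not read against those shares. Of 25 further genes induced by glucocorticoids, 17 in liver, 17 in adipose tissue and 21 in muscle were highest of the 4 in sample B. In adipose tissue 5 of 5 adipocyte genes were lowest in it, with a summed level of 5886 against 9227 to 13229 in the others. The lipid droplet gene *Plin1* was at 50.02 there against 241.7 to 373.7, and the leptin gene *Lep* at 17.6 against 111.6 to 480.3. Also lowest in adipose sample B were the sums of macrophage (317.4 against 407.4 to 655.4), fibroblast, B cell, T cell and hepatocyte genes. Those of endothelial, mesothelial, myofibre and acinar pancreas genes were not. Of 15 clock genes 8 were highest in sample B in liver, 8 in adipose tissue and 7 in muscle, and adipose *Npas2* was at 87.6 against 7.77 to 27.6. In muscle 10 of 10 immediate early genes (sum 3611 against 827.2 to 1319.8) and 8 of 8 heat shock genes (14963 against 2076 to 5979.7) were highest in it. In liver and adipose tissue 7 and 3 of 10 immediate early genes and 3 and 4 of 8 heat shock genes were. Of 10 receptor chaperones, 10 were highest in it in liver (8141 against 4449 to 5522), 7 in muscle (8346 against 3661 to 5295) and 5 in adipose tissue. Of 12 metabolic target genes 9 were highest in it in liver, 3 in adipose tissue and 2 in muscle.

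**Figure D3:**
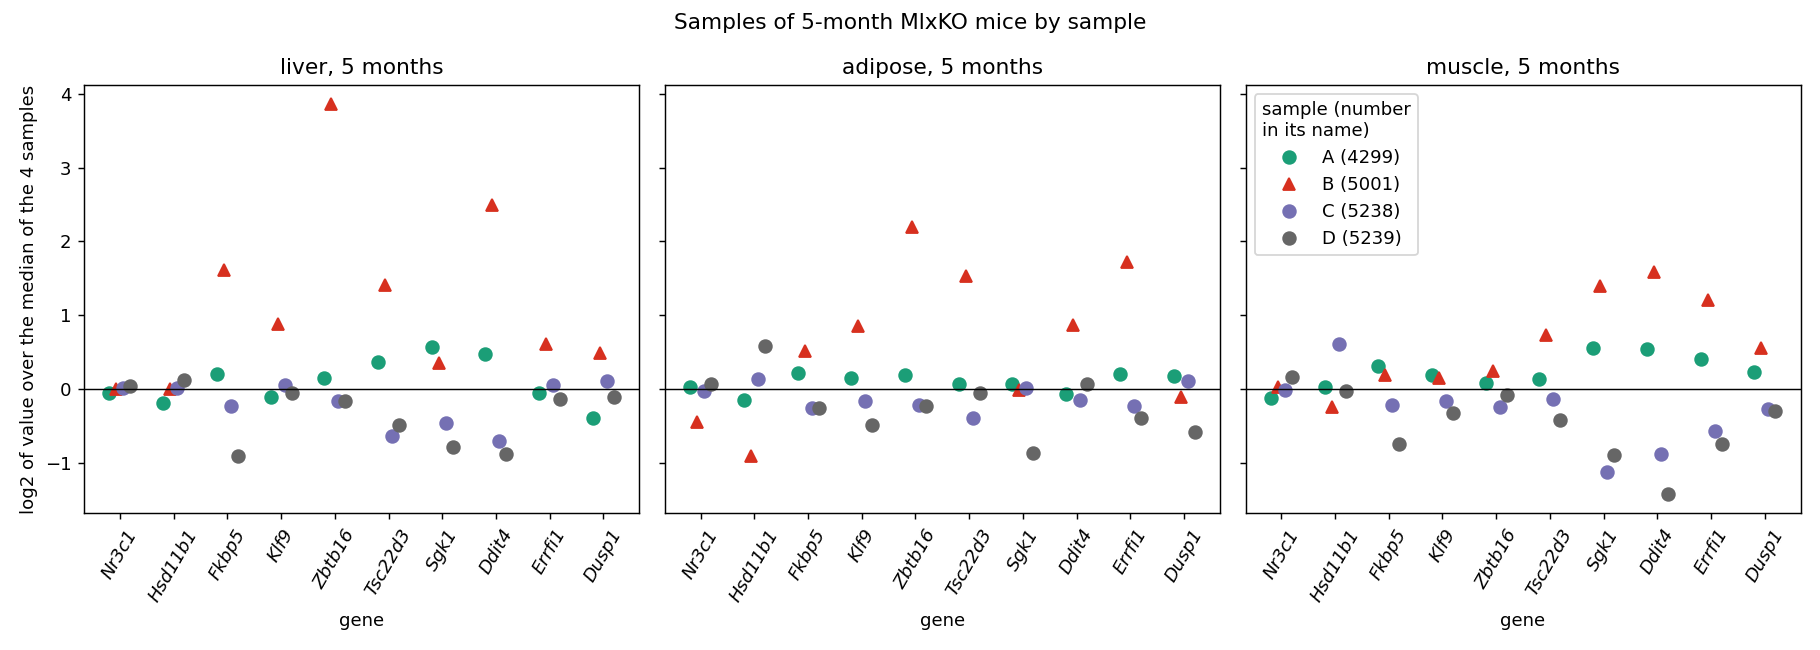
Value of each gene in the 5-month samples as log2 of its ratio to the median of the 4 samples (y axis), by gene (x axis), tissue (panel) and sample (colour, triangle for sample B). The triangles stand above the other samples for *Zbtb16*, *Tsc22d3*, *Ddit4* and *Errfi1* in all 3 panels, and below them for *Nr3c1* and *Hsd11b1* in adipose tissue.

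Without the B samples (an alternative chosen after seeing the data), 1 of the 10 genes fell in liver, 1 in adipose tissue and 5 in muscle, where 3.71%, 2.21% and 6.77% of genes tested were called lower, so fewer genes of any kind were called. The gene called in liver and adipose tissue was *Fkbp5*, by 1.13 ± 0.25 (adjusted p = 0.0348) and 1.83 ± 0.31 (adjusted p = 0.0268). In muscle *Fkbp5*, *Tsc22d3*, *Zbtb16*, *Ddit4* and *Errfi1* were called, and *Klf9* was at -0.31 ± 0.12 (adjusted p = 0.102). *Ddit4* in muscle still fell by 2.51 ± 0.50 (adjusted p = 0.00933). The adipose difference of *Tsc22d3* went from -0.49 to -0.07 and the liver difference of *Zbtb16* from -1.34 to -0.40. Loss of calls was not particular to sample B. Without sample A no call was left in liver, only that of *Fkbp5* in adipose tissue, and those of *Klf9* and *Errfi1* were lost in muscle. Leaving out older liver sample 18 also left no call in liver, and leaving out older adipose sample 38 or 39 left only *Fkbp5* in adipose tissue.

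No difference in age change between tissues passed the threshold for any of the 10 genes in the limma fit of all 27 samples, where 15.6% (liver against adipose tissue), 17.5% (liver against muscle) and 14.7% (adipose tissue against muscle) of 15572 genes passed. At an unadjusted p under 0.05 the counts were 1 (*Nr3c1*), 0 and 2 (*Nr3c1* and *Klf9*), and limma was the only tool run on this contrast. With sample weights *Nr3c1* passed for liver against adipose tissue and *Klf9* for adipose tissue against muscle. With 1 sample left out *Nr3c1* passed for liver against adipose tissue (without older liver sample 74) and *Ddit4* for liver against muscle (without sample B in liver). The largest estimates belonged to *Ddit4*, whose log2 age change was 1.67 higher in liver than in muscle (95% interval -0.06 to 3.39, adjusted p = 0.172) and 1.70 higher in adipose tissue than in muscle (-0.02 to 3.43, adjusted p = 0.171). The *Klf9* change was 0.74 lower in adipose tissue than in muscle, an estimate of -0.74 (-1.45 to -0.03, adjusted p = 0.146). For *Fkbp5* the estimates ran from -0.46 to 0.37 with intervals that reach from -1.62 to 1.53, so differences of more than 1 on the log2 scale in either direction lie within them. A gene called in 1 tissue and not in another was therefore not shown to change differently between them.

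Levels of the genes differed between the tissues at both ages on the deposited scale, as did those of most genes tested. The counts below are therefore not read as particular to the 10 genes. At 5 months the factor that divides CPM was 1.55 to 1.79 in adipose tissue, 0.806 to 0.905 in muscle and 0.717 to 0.758 in liver. The tissue orders given here and in the next paragraph depend on this scaling. At 5 months 6 of the 10 genes differed between adipose tissue and liver, 10 between muscle and liver and 6 between adipose tissue and muscle, where 76.4%, 72.9% and 72.8% of 15572 genes differed. At 20 months the counts were 8 (9 with the mouse as a block, which added *Tsc22d3* at an adjusted p of 0.0382 in place of 0.0502), 9 and 7, where 74.5%, 77.2% and 76.0% differed. *Hsd11b1* was highest in liver at both ages, with a mean of 498.0 ± 44.7 (SD, n = 4) at 5 months against 79.9 ± 32.0 in adipose tissue and 8.77 ± 2.38 in muscle, and each step in that order passed the threshold. *Errfi1* was also highest in liver, at 1594 ± 400.6 against 84.9 ± 67.2 in adipose tissue and 119.0 ± 76.4 in muscle at 5 months, and the latter pair did not differ beyond their spread (log2 difference -0.54, 95% interval -1.43 to 0.35, adjusted p = 0.270). At 20 months *Errfi1* was 1.02 lower on the log2 scale in adipose tissue than in muscle, a difference of -1.02 ± 0.39 (adjusted p = 0.0190).

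*Zbtb16* was lowest in liver, intermediate in adipose tissue and highest in muscle, with 5-month means of 35.1 ± 54.6, 129.4 ± 127.0 and 462.6 ± 66.1 and 20-month means of 6.39 ± 4.23, 39.3 ± 15.3 and 240.4 ± 45.1, and each step passed at both ages. *Tsc22d3*, *Fkbp5* and *Klf9* were highest in muscle at both ages, with 5-month means of 421.6 ± 151.0, 345.8 ± 104.4 and 309.9 ± 52.0 there. Liver and adipose tissue did not pass the threshold apart for *Fkbp5* at either age, with differences of -0.08 (-0.94 to 0.79) and 0.29 (-0.49 to 1.06). *Sgk1* and *Dusp1* were lowest in liver at both ages, and adipose tissue and muscle were neighbours within their spread. *Ddit4* was lowest in liver at 5 months (32.2 ± 38.2, against 94.3 ± 34.3 in adipose tissue and 128.9 ± 115.6 in muscle). At 20 months adipose tissue was highest at 39 ± 21.3, above muscle at 12.3 ± 7.14 by 1.66 ± 0.56 (adjusted p = 0.00925), and liver was at 7.63 ± 2.92. On the deposited scale *Nr3c1* was highest in muscle at 5 months, by 0.61 over liver and 0.62 over adipose tissue. The limma fit gives these as -0.61 ± 0.13 and -0.62 ± 0.13 (adjusted p = 0.000211 and 0.000184). As a share of reads, before the factor, it was higher in adipose tissue than in muscle in each 5-month mouse. In sample A it had 2755 of 18524759 reads in adipose tissue and 1485 of 14384695 in muscle. At 20 months its adipose mean of 103.6 ± 15.6 lay between 78.5 ± 14.3 in liver and 120.6 ± 12.6 in muscle, and the upper pair did not pass (-0.22, -0.47 to 0.02, adjusted p = 0.0870).

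Within groups, the 8 induced genes varied together over all samples, and less so without sample B. Each gene's deviations from its group mean were correlated over all 27 samples, which share group and, at 5 months, the mouse. The 28 pairs among the 8 genes had Pearson r of 0.11 to 0.77 (median 0.54), all 28 above 0. The highest was *Tsc22d3* with *Zbtb16* at 0.77. *Nr3c1* had r of -0.27 to 0.08 with the 8 genes, and *Hsd11b1* -0.37 to 0.05. In the 24 samples without sample B the median among the 8 genes was 0.33, the range -0.24 to 0.65, and 24 of 28 pairs were above 0. There *Nr3c1* had r of -0.22 to 0.68 with the 8 genes (4 of 8 above 0) and *Hsd11b1* -0.32 to 0.14 (6 of 8 above 0). These are descriptions, without a test, and no pairs among other genes were set beside them.

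**Figure D4:**
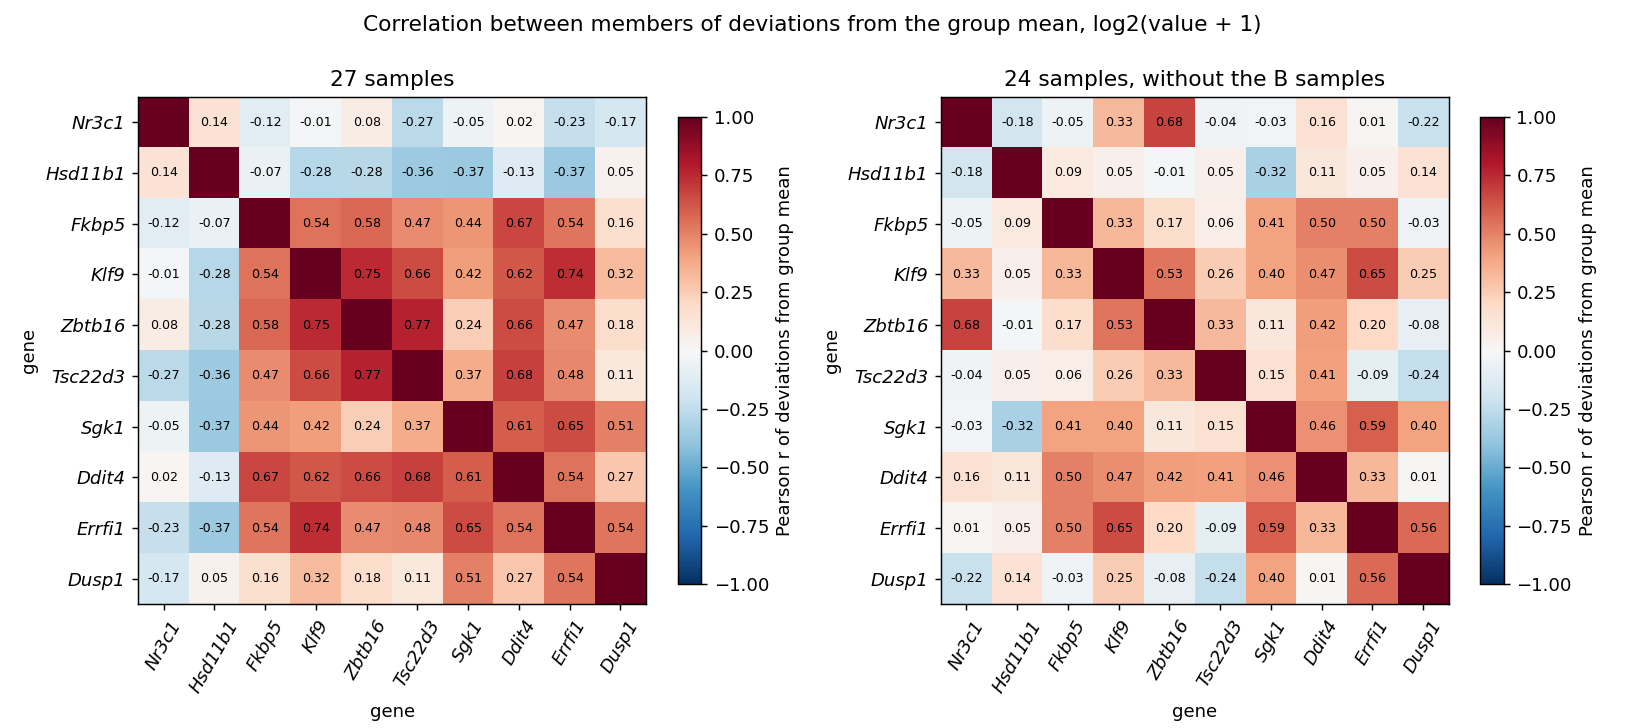
Pearson r between genes (both axes, colour scale from -1 to 1) of deviations from the group mean of log2(value + 1), over all 27 samples (left) and over 24 samples without sample B (right). Pairs of the 8 induced genes have a median of 0.54 on the left and 0.33 on the right, where 24 of 28 are above 0. The lowest of them on the right is *Dusp1* with *Tsc22d3* at -0.24. *Nr3c1* and *Hsd11b1* reach at most 0.08 with these genes on the left. On the right *Nr3c1* is at 0.68 with *Zbtb16* and at 0.33 with *Klf9*.

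Among 11219 genes with a mean value of at least 5, the 3 whose deviations followed a member most closely over the 27 samples were named by rank, here for 9 of the 10 members. *Zbtb16* was followed by *Lpin1* (r = 0.92), which encodes the phosphatidate phosphatase lipin 1, *Il1r1* (0.84) and *Tead1* (0.81). *Tsc22d3* was followed by *Il1r1* (0.85), *Fam107a* (0.81) and *Pros1* (0.80), and *Ddit4* by *Fam107a* (0.87), *Ms4a4d* (0.86) and *Acer2* (0.83). *Errfi1* was followed by *Slc25a30* (0.88), *Tmem87b* (0.85) and the clock gene *Per1* (0.84), itself a receptor target. *Sgk1* was followed by *Kdm3a* (0.85), *Socs3* (0.84) and *Timp3* (0.83), and *Dusp1* by the immediate early gene *Nr4a1* (0.91), *Plk3* (0.80) and *Sik1* (0.80). *Fkbp5* was followed by *Tle1* (0.83), *Trp53bp2* (0.80) and *C87436* (0.79), and *Klf9* by *Sp1* (0.80), *Dopey1* (0.80) and *Rora* (0.79). *Nr3c1* was followed by *Nbeal1* (0.83), *Jade1* (0.80) and *Ccser2* (0.79).

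Of 25 further genes known to be induced by glucocorticoids, 17 fell and 0 were called higher in muscle, with a median log2 difference of -1.38. The largest changes were those of the metallothioneins *Mt2* (364.7 to 14, -3.79 ± 0.65, adjusted p = 0.00436) and *Mt1* (501.8 to 23.3, -3.69 ± 0.61, adjusted p = 0.00390) and of the transcription factor gene *Cebpd* (212.1 to 28.8, -2.78 ± 0.40, adjusted p = 0.00246). In adipose tissue 7 of 25 fell and 0 were called higher (median -0.41), among them the kinase gene *Map3k6* (-1.70 ± 0.34, adjusted p = 0.0167) and *Per1* (-1.67 ± 0.41, adjusted p = 0.0288). In liver 2 of 25 fell, *Irs2* (-1.52 ± 0.44, adjusted p = 0.0357) and *Cdkn1a* (-1.50 ± 0.32, adjusted p = 0.0136), *Arrdc2* rose (0.79 ± 0.19, adjusted p = 0.0187) and the median was -0.22. Without the B samples, 16, 2 and 1 of the 25 fell in muscle, adipose tissue and liver, and 1, 0 and 1 rose.

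Of the metabolic targets tested, 5 of 10 fell and 1 rose in liver, where they include the enzymes of amino acid breakdown and gluconeogenesis. *Got1* fell by 1.97 ± 0.28 (630.6 to 153.5, adjusted p = 0.00589) and *Tat*, tyrosine aminotransferase, by 1.87 ± 0.36 (3671 to 973.0, adjusted p = 0.0112), while *Lpl*, lipoprotein lipase, rose by 1.71 ± 0.27 (22.9 to 81.5, adjusted p = 0.00775). In muscle 6 of 8 fell, with the muscle ubiquitin ligase gene *Trim63* at -1.78 ± 0.26 (3436 to 1035, adjusted p = 0.00245), *Pck1* at -1.30 ± 0.31 (adjusted p = 0.0165) and the growth inhibitor *Mstn* at -1.20 ± 0.25 (adjusted p = 0.00990). In adipose tissue 1 of 8 fell, the lipase gene *Pnpla2* (-0.77 ± 0.21, adjusted p = 0.0379). Without sample B, 3, 6 and 0 fell in liver, muscle and adipose tissue. Of all genes tested, 9.79%, 10.1% and 9.35% were called lower in those tissues with all samples, and 3.71%, 6.77% and 2.21% without sample B. The counts of metabolic targets are not read against those shares.

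Genes that act with the receptor were counted too, beside 9.79%, 9.35% and 10.1% of all genes called lower in liver, adipose tissue and muscle. Of 10 receptor chaperones, 2 fell in liver, *Ppid*, which encodes cyclophilin 40 (-0.61 ± 0.13, adjusted p = 0.0143), and *Hspa4* (-0.55 ± 0.16, adjusted p = 0.0363), 0 in adipose tissue and 2 in muscle, *Hsp90aa1* (-1.91 ± 0.60, adjusted p = 0.0434) and *Hspa8* (-0.88 ± 0.26, adjusted p = 0.0365). Of 10 coregulators 4 fell in liver, led by *Ep300* (-0.64 ± 0.12, adjusted p = 0.0113), *Ncor1* (-0.53 ± 0.12, adjusted p = 0.0154) and *Ncoa2* (-0.48 ± 0.12, adjusted p = 0.0218), 2 in adipose tissue, *Ncoa1* and *Med1*, and 2 in muscle, *Crebbp* and *Smarca4*. Of the steroid handling genes, *Nr3c2*, the mineralocorticoid receptor gene, rose in muscle by 0.92 ± 0.15 (adjusted p = 0.00330), while *H6pd*, which supplies the cofactor of the *Hsd11b1* enzyme, fell by 0.73 ± 0.16 (adjusted p = 0.0110) and *Abcb1a* by 0.50 ± 0.13 (adjusted p = 0.0247). In adipose tissue *Abcb1b* was the 1 called of 5 tested, lower by -0.99 ± 0.26 (adjusted p = 0.0341), and in liver 0 of 7 were called. Without the B samples, 1, 0 and 1 chaperones and 2, 0 and 0 coregulators fell in liver, adipose tissue and muscle. There 3.71%, 2.21% and 6.77% of all genes were called lower. Nothing is read from these counts against those shares.

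**Figure D5:**
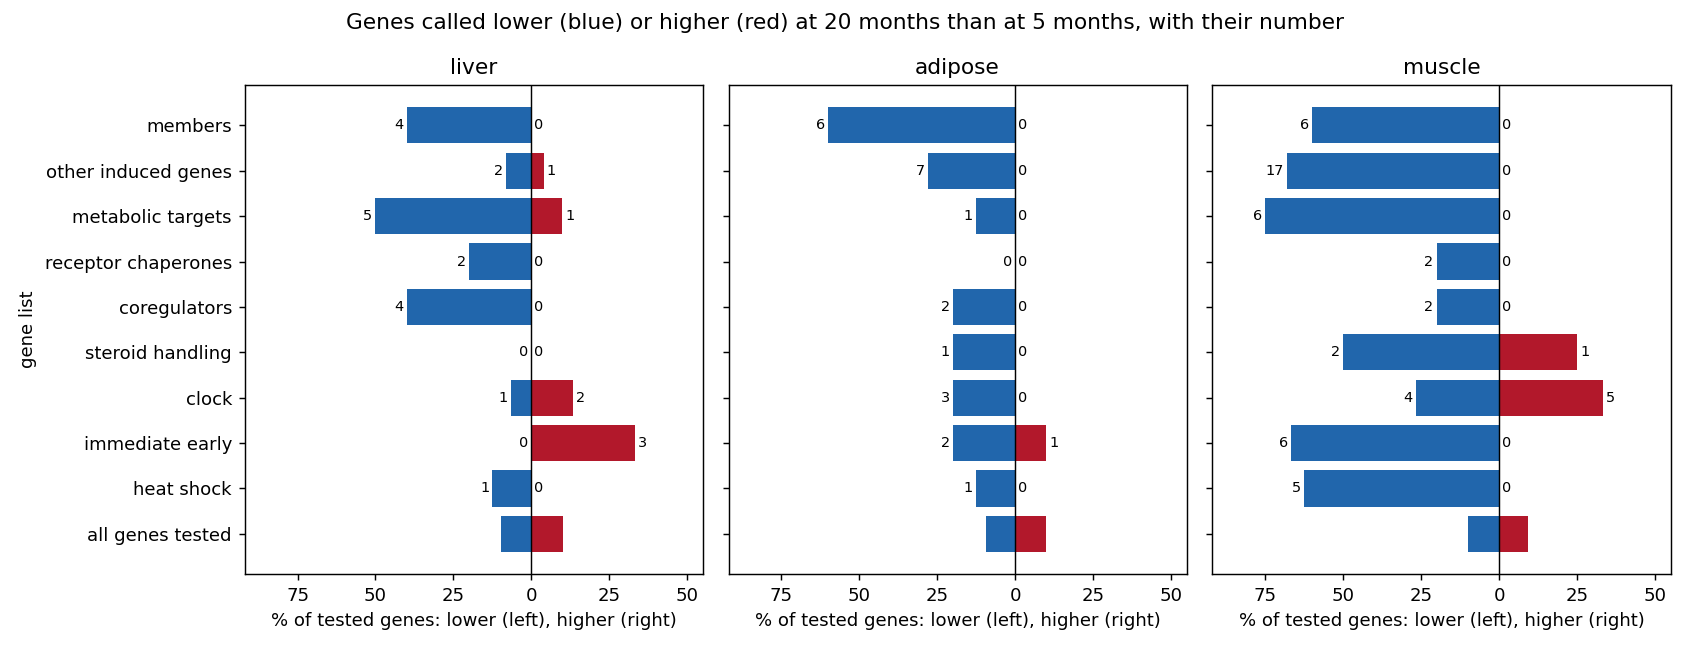
Share of the tested genes of each list (y axis) called lower (blue, left) or higher (red, right) at 20 months in each tissue, with the number of genes beside each bar and all genes tested at the bottom. In muscle 17 of 25 other induced genes and 6 of 8 metabolic targets were called lower and 0 higher, and in liver the clock and immediate early lists had more genes higher than lower.

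Several other programmes and cell markers moved between the same groups, and their part in the levels of the 10 genes was not tested. Of 15 clock genes, 2 rose in liver, *Dbp* (1.89 to 36.7, 2.81 ± 0.79, adjusted p = 0.0332) and *Nr1d1* (27.8 to 94.1, 1.85 ± 0.34, adjusted p = 0.00969), and *Clock* fell (-0.58 ± 0.13, adjusted p = 0.0151). In muscle 5 rose, with *Per3* at 1.61 ± 0.25 (adjusted p = 0.00315), and 4 fell, with *Per1* at -1.52 ± 0.35 (adjusted p = 0.0154) and *Npas2* at -1.30 ± 0.23 (adjusted p = 0.00454). In adipose tissue 3 fell and 0 were called higher. The time of day of collection is not given in the sources used here.

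Of the immediate early genes, 6 of 9 fell in muscle (*Atf3*, *Egr1* and *Fos* with the largest changes, -3.42, -2.85 and -2.49), 3 of 9 rose in liver (*Atf3*, *Egr1* and *Junb*), and in adipose tissue 2 of 10 fell (*Nr4a1* and *Egr1*) and 1 rose (*Atf3*). Of 8 heat shock genes 5 fell in muscle, 1 in adipose tissue (*Bag3*) and 1 in liver (*Hspd1*). In muscle *Hspa1b* fell by 4.82 ± 0.90, *Hspa1a* by 4.36 ± 0.85 and *Dnajb1* was at -3.08 ± 0.84. In the 5-month muscle sample labelled B *Hspa1b* was at 4038, *Egr1* at 859.6 and *Fos* at 412.4, against at most 1071, 115.4 and 159.4 in the other 3 samples. In adipose tissue of the same number *Egr1* and *Fos*, at 36.8 and 25.4, were not the highest of the 4.

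Among cell markers in liver, the summed level of the hepatocyte genes was 100476 to 159463 at 5 months and 43102 to 95552 at 20 months, with 1 of 5 genes called lower (*Cps1*) and 0 higher. In liver 2 of 5 macrophage genes rose (*C1qb* and *C1qa*, sum 129.8 to 187.7 against 150.6 to 442.5), 4 of 5 B cell genes rose (1.31 to 7.76 against 7.05 to 15.6) and 3 of 5 fibroblast genes rose (35.2 to 48.5 against 60.04 to 135.2). In adipose tissue 5 of 5 B cell genes rose (3.10 to 17.3 against 12.3 to 166.5), 2 of 5 macrophage genes rose (317.4 to 655.4 against 521.3 to 1707), and 3 of 5 endothelial genes (580.9 to 1294 against 371.7 to 684.1) and 3 of 5 mesothelial genes fell (62.5 to 129.1 against 32.0 to 70.9). The adipocyte genes did not pass, 0 of 5, with sums of 5886 to 13229 against 8562 to 12823 (4 of 5 estimates above 0, with a median log2 difference of 0.43). In muscle 2 of 5 macrophage genes (70.2 to 108.6 against 33.9 to 62.8) and 3 of 5 fibroblast genes (283.2 to 492.4 against 165.7 to 240.6) fell, with 0 of 5 myofibre genes called (136653 to 157725 against 122077 to 147013). Of the other marker lists, *Cd8a* rose in liver and adipose tissue as the only called T cell gene of 1 and 4 tested (*Trac* was at 0 in all samples), *Kdr* fell in liver and *Pecam1* in muscle of 5 endothelial genes each, *Wt1* rose of 5 mesothelial genes in liver, and *Cidec* fell of 2 adipocyte genes tested in liver. Fibroblast genes (0 of 5), hepatocyte genes (0 of 4) and myofibre genes (0 of 5) were not called in adipose tissue, nor hepatocyte, adipocyte (0 of 5 each) and mesothelial genes (0 of 1) in muscle. No acinar pancreas gene passed the filter in any tissue, and their summed level was at most 1.07.

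Of the Mlx network genes, the partner gene *Mlxipl* (97.8 to 168.5, 0.78 ± 0.14, adjusted p = 0.00890) and its target *Pklr* (0.68 ± 0.18, adjusted p = 0.0252) rose in liver, 2 of 6, and *Mlxipl* fell in adipose tissue (-0.77 ± 0.20, adjusted p = 0.0330), 1 of 6. In muscle *Mlxip* (-0.54 ± 0.16, adjusted p = 0.0384) and *Txnip* (-0.44 ± 0.09, adjusted p = 0.00871) fell, 2 of 5 tested.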

How the data were processed

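RNA of *Mlx*KO mice was measured in liver, adipose tissue and muscle at 5 and 20 months. CLC Genomics Workbench was used by the authors to count reads, and each deposited value is a signal that equals CPM divided by a factor for each sample. The build and annotation used in CLC and the setting for strand are not given in the sources used here. *Gm22146*, *Mir1192*, *Gm32280* and *1700045H11Rik*, which overlap *Fkbp5*, *Klf9*, *Zbtb16* and *Errfi1*, reached values of 6.63, 0, 4.61 and 0.106 at most, and *Gm46215* and *Gm18511*, which overlap *Sgk1*, have no row of that symbol. Dividing by the value of 1 read gave whole numbers for 100% of deposited values (tolerance 0.01 reads), from which reads were recovered. 0 sample columns were left unused.

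The members and all gene lists were chosen with earlier results of these data known. Named genes were all 10 members, the called genes among the 3 largest changes of each other list in a tissue, and the 3 genes most correlated with each member, of which those for *Hsd11b1* are not reported here. Values of *Egr1*, *Fos*, *Hspa1b*, *Plin1*, *Lep* and *Npas2* by sample, and the single genes *Arrdc2*, *Clock*, *Hspd1* and *Hspa4* behind small counts, were chosen after their values were seen. Ages were compared per tissue by limma (3.58.1, under R 4.3.3) on log2(value + 1), using a variance trend. Genes needed a value of 1 or more in 4 or more samples, and Benjamini-Hochberg adjustment covered all genes tested, at a threshold of 0.05. Log2 changes on this scale understate those of low values. Differences between tissues and in age change were contrasts in 1 fit of all 27 samples. By the study's mouse list the samples of a group came from different mice, and those of the 3 tissues at 5 months from the same 4 mice, matched by the numbers in their names. Samples of a mouse correlated in their deviations with r of -0.02 to 0.29 in 12 pairs, 7 of them over 0.1. The alternatives were other pseudocounts, filters and scalings, no trend, sample weights, 1 fit for all samples, edgeR 4.0.16 and DESeq2 1.42.0 on recovered reads, the mouse as a block, and each sample left out in turn. Procedures were tested on simulated reads. Coordinates are those of GRCm38.p6, a build named in the submitters' processing notes, matched by gene ID for 10 of 10 genes.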

Additional observations from a re-analysis of the deposited data

Results flagged for a closer look

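Within each group of 4 or 5 samples, the highest and lowest value of each of the 10 genes was set against the rest by Dixon's 95% critical value, and 8 of the 60 groups examined held a sample that stood apart. This critical value assumes normally distributed values, and it was applied to values without a log. The 10 genes also share samples, so no chance rate is set beside the 8. In 7 of the 8 the sample was the one called B, in 5-month tissue: *Klf9* at 249.8, *Zbtb16* at 117.0 and *Ddit4* at 88.7 in liver, and *Tsc22d3* at 216.1, *Zbtb16* at 319.4, *Ddit4* at 145.2 and *Errfi1* at 184.8 in adipose tissue. The remaining one was *Sgk1* in 5-month adipose tissue, where sample D was lowest at 110.8. None was in muscle. What sets sample B apart was not tested.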

How the results depend on the processing

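Every called gene kept a negative difference in all alternatives. *Fkbp5* was called in each tissue under all 12 alternatives other than leaving out a sample, and *Tsc22d3* and *Ddit4* in muscle likewise. Of the 10 genes, 4 were called in liver, where 2508 of all genes were, against 1 (of all, 1732) with no filter, 2 (2212) with quantile normalization and 1 (2596) with scaling without the 20 most abundant genes. In adipose tissue 6 (2674) were called, against 2 (1525) with no filter. On recovered reads edgeR called 5, 6 and 6 of the 10 genes and 2578, 2692 and 2453 of all genes in liver, adipose tissue and muscle, and DESeq2 called 6, 6 and 7 of the 10 and 3463, 4348 and 3217 of all. With 1 sample left out in turn, 4 to 7 were called in muscle, 1 to 6 in adipose tissue and 0 to 4 in liver, where all genes called numbered 1158 to 3796, 397 to 3748 and 959 to 3557. Cause of the lost calls was not tested, beyond the fewer samples. Differences in age change, 0 called, gave 1 with sample weights for liver against adipose tissue (*Nr3c1*) and 1 for adipose tissue against muscle (*Klf9*), and 0 to 1 for liver against adipose tissue and liver against muscle with 1 sample left out (*Nr3c1* without older sample 74 in liver, *Ddit4* without sample B in liver).

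With the 5-month mouse as a replicate block, 9 in place of 8 genes differed between liver and adipose tissue at 20 months, and the other counts, 0 differences in age change among them, were the same.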
